A study of Bos indicus x Bos taurus with 45 samples.

Results

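Livers of 4 bovine fetuses with large offspring syndrome (LOS) were set against livers of 4 fetuses of assisted reproduction (ART) that were labelled healthy. These 8 libraries are all the liver libraries of those groups, out of 13 in liver and 45 in the series, and all 563 microRNAs (miRNAs) listed for liver entered the test. The comparison asks what accompanies overgrowth when both groups were conceived with assistance. LOS is a ruminant overgrowth condition seen after assisted reproduction, and it resembles Beckwith-Wiedemann syndrome of children.

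LOS fetuses and ART fetuses were both conceived by ART and differed in their labelled disease status. A further 5 control fetuses, conceived by artificial insemination and labelled healthy, shared the statistical model and served as a second point of comparison. Every fetus was a Bos indicus by Bos taurus cross at about day 105 of gestation, and no treatment or allele is named for any group. The labels name neither the technique of assisted reproduction nor the criterion for calling a fetus LOS. They give no sex, dam or processing day for these livers.

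A miRNA is a short RNA cut from a hairpin precursor, and 1 or both arms of the hairpin can be kept as a mature strand. The mature strand pairs through its seed, a few bases near its 5′ end, with messenger RNAs and lowers their output. The let-7 family, to which miR-98 belongs, shares a seed, is low in early embryos and accumulates as cells differentiate, and its maturation is blocked by the LIN28 proteins. Known let-7 targets include HMGA2 and the IGF2 mRNA-binding proteins, which act in fetal growth. In liver, miR-122 is the characteristic miRNA of hepatocytes, and miR-192 and miR-194 are made from shared transcripts in liver, gut and kidney epithelium.

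Listed reads per library came to 3733598 to 4976770 in LOS and 3936697 to 4796102 in ART, and no listed count was below 3. Values below are CPM, the reads of a miRNA relative to all listed reads of its library, scaled by TMM factors between 0.969 and 1.03. The first principal component of the 8 libraries carried 35.9% of the variance. LOS libraries scored -8.06 to -0.851 on it and ART libraries -0.264 to 6.19, so that the groups met at LOS 4 and ART 4 without overlapping. The liver label fitted its markers of hepatocytes and red cell precursors. miR-122 stood at 14164 to 18430 CPM in LOS and 18399 to 19809 CPM in ART. miR-451 of red cell precursors, which fetal liver produces, stood at 12539 to 14564 CPM in LOS and 12883 to 13709 CPM in ART. miR-1 and miR-206 of striated muscle, miR-124a of neurons and miR-205 of squamous epithelium were not among the listed miRNAs, but other markers of these cells were. Listed were 3 of 7 names sought for striated muscle, 3 of 8 for neurons and 6 of 7 for epithelium. miR-133a of striated muscle had 53.3 to 169.6 CPM in the 8 livers.

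5 let-7 family guide strands, miR-98 among them, and the opposite arm let-7f-1-3p rose in LOS liver, and a set of mostly unnamed miRNAs together with miR-192, miR-2408 and miR-2904 fell. Of 563 miRNAs, 15 passed (2.66%) at an adjusted p under 0.05 in edgeR's quasi-likelihood test with Benjamini-Hochberg adjustment, 6 of them higher (1.07%) and 9 lower (1.6%) in LOS. All 6 that rose come from let-7 and miR-98 precursors, and 6 of the 9 that fell carry temporary names. An unadjusted p under 0.05 was reached by 87 miRNAs (15.5%), 40 higher and 47 lower. The median difference over all 563 miRNAs was -0.00012 on the log2 scale, and the median size of a difference was 0.12. All 4 LOS libraries lay above all 4 ART libraries for 18 miRNAs (3.2%) and below them for 30 (5.33%), and the 15 that passed are among these 48.

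**Figure D1:**
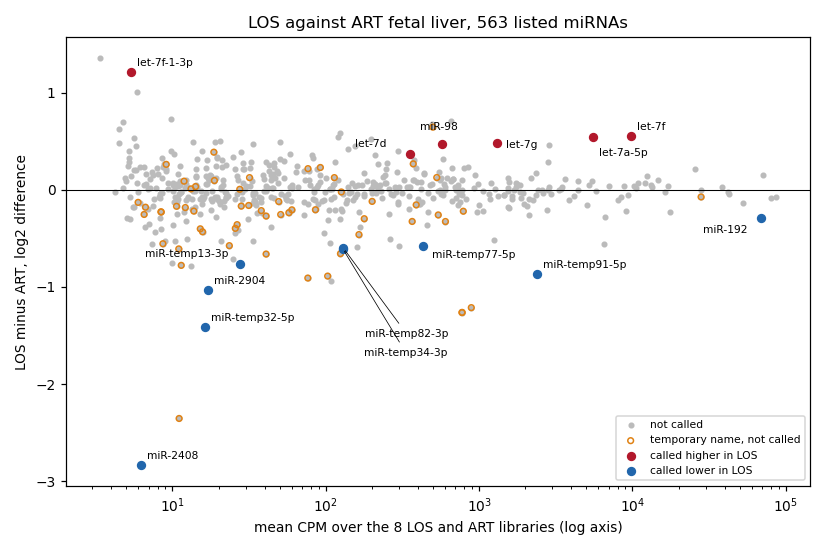
Difference between LOS and ART liver (log2, vertical axis) against mean CPM over the 8 libraries (log axis) for each of the 563 miRNAs. Red points rose and blue points fell in edgeR's test, and orange rings are entries with temporary names that did not pass. The called miRNAs span differences from -2.84 for miR-2408 to 1.21 for let-7f-1-3p, and the called let-7 guides lie at 0.37 to 0.56.

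let-7a-5p stood at 6804, 5557, 7399 and 6485 CPM in LOS 1 to 4, against 4361, 4601, 4691 and 4389 CPM in ART 1 to 4. The groups did not overlap, and the lowest LOS library, LOS 2, was above the highest ART library. The difference was 0.54 ± 0.07 (log2 ± SE, adjusted p 0.00258 in edgeR's test). let-7f, the let-7 member with the highest CPM, stood at 11834, 9905, 14194 and 10928 CPM in LOS 1 to 4, against 7438, 8228, 8507 and 7663 CPM in ART 1 to 4. It rose by 0.56 ± 0.09 (edgeR adjusted p 0.00476), and LOS 3 was the highest and LOS 2 the lowest of the LOS livers.

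miR-98, an X-linked family member in mammals, had 652, 578, 750.3 and 682 CPM in LOS 1 to 4, against 454, 499.96, 492 and 469 CPM in ART 1 to 4. It rose by 0.48 ± 0.07 (edgeR adjusted p 0.00476), with no overlap. let-7g had 1526, 1267, 1804 and 1503 CPM in LOS 1 to 4, against 1081, 1177, 1097 and 1017 CPM in ART 1 to 4. It rose by 0.48 ± 0.09 (edgeR adjusted p 0.00858), and again LOS 2 came closest to the ART range. let-7d had 399.9, 330.2, 477 and 405 CPM in LOS 1 to 4, against 298, 322, 319 and 305 CPM in ART 1 to 4. It rose by 0.37 ± 0.09 (edgeR adjusted p 0.0363), and the gap between LOS 2 and the highest ART library was narrow.

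let-7a-5p, let-7f and miR-98 kept their call in each of 22 alternative settings, with adjusted p of at most 0.0152, 0.046 and 0.034. let-7g lost it in 1, the fit of the LOS and ART libraries alone (adjusted p 0.0579). let-7d lost its call in 11 settings. They include the omission of LOS 1, LOS 3, LOS 4, control 2, control 3 or any ART library, where the edgeR adjusted p lay between 0.0534 and 0.117.

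let-7i, let-7c, let-7b and let-7e were higher in mean but did not pass in edgeR's test. let-7i had 3076, 2735, 3265 and 3351 CPM in LOS 1 to 4, against 2433, 2561, 2639 and 2527 CPM in ART 1 to 4, a difference of 0.29 ± 0.08 (edgeR adjusted p 0.0803). let-7c had 535, 487, 736 and 681 CPM in LOS 1 to 4, against 364, 371, 445 and 346 CPM in ART 1 to 4, a difference of 0.68 ± 0.18 (edgeR adjusted p 0.0718). Neither overlapped between the groups. Without LOS 2, let-7i, let-7c and let-7e passed (edgeR adjusted p 0.0237, 0.033 and 0.0335), and let-7i and let-7c also passed without control 1 (0.0477 and 0.0311), as did let-7c without control 5 (0.0349). Both also passed in DESeq2 (adjusted p 0.0239 for let-7i and 0.00676 for let-7c) and with library totals alone in edgeR (0.0405 and 0.0456).

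let-7b had 419, 365, 433 and 446 CPM in LOS 1 to 4, against 329, 324, 365 and 322 CPM in ART 1 to 4, and its 0.31 ± 0.11 did not pass (edgeR adjusted p 0.218). LOS 2 and ART 3 stood side by side. let-7e had 959, 443, 930.3 and 915 CPM in LOS 1 to 4, against 641, 325, 368 and 658 CPM in ART 1 to 4, and its 0.71 ± 0.26 did not pass (edgeR adjusted p 0.218). In both groups let-7e was split, with LOS 2, ART 2 and ART 3 low and the rest high, and LOS 2 lay inside the ART range.

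**Figure D2:**
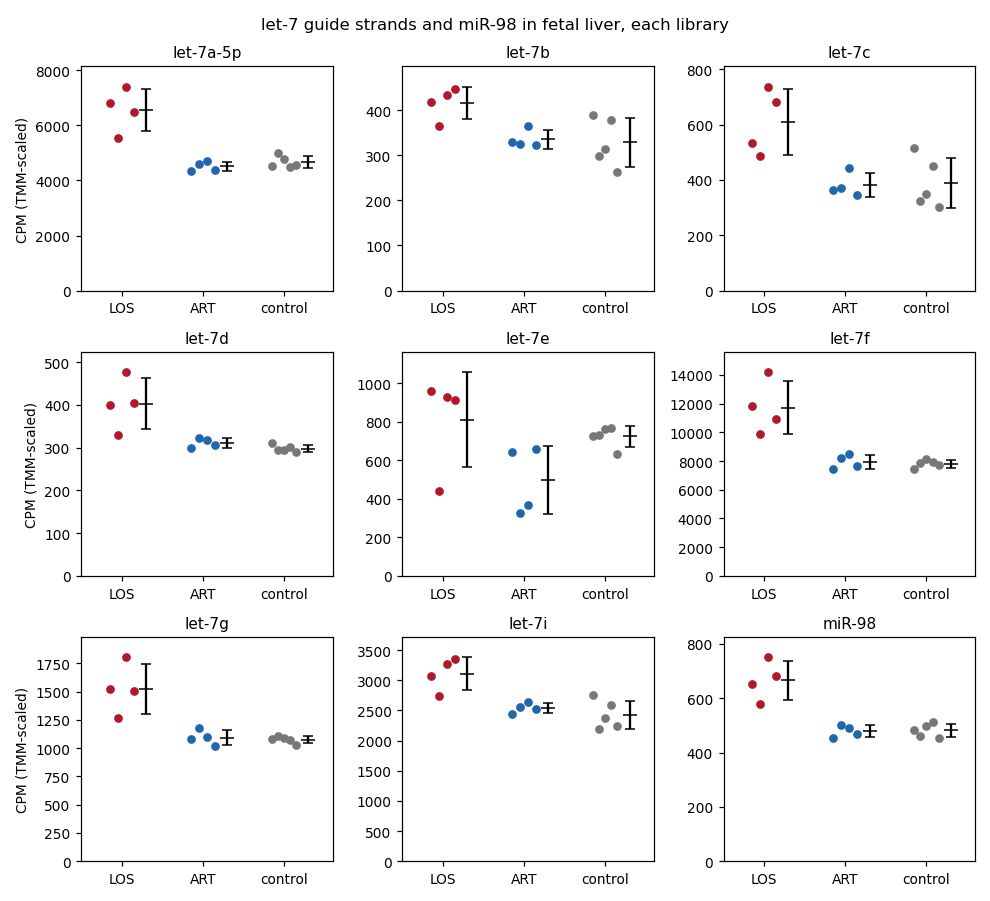
TMM-scaled CPM of the 9 let-7 guide strands in each liver library, LOS (red), ART (blue) and control (grey), with mean and SD beside the points. In 7 of 9 panels (77.8%, beside 3.2% of all 563 miRNAs) all LOS points lie above all ART points. In let-7b and let-7e the library LOS 2 reaches the ART range.

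As a group, 9 of 9 let-7 guides were higher in mean, beside 281 of all 563 miRNAs. Of the 9, 5 were called higher (55.6%, beside 1.07% of all), with a median difference of 0.48 beside -0.00012 over all 563. All 9 reached an unadjusted p under 0.05, beside 15.5% of all miRNAs. Their reads made up 2.64, 2.22, 2.96 and 2.58% of listed reads in LOS 1 to 4, against 1.73, 1.85, 1.83 and 1.75% in ART 1 to 4. The LOS mean of 2.6 ± 0.303% was 1.45 times the ART mean of 1.79 ± 0.0566% (SD, n = 4 each), with 4 of 4 LOS livers above every ART liver. Control livers had 1.82 ± 0.0453% (SD, n = 5), so all 4 LOS livers also lay above every control.

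The guides ranked the LOS livers in much the same way. LOS 2 was the lowest LOS library for 9 of 9 guides, and LOS 3 was the highest for 6. Their median SD between livers, on the log2 scale, was 0.208 in LOS and 0.0856 in ART. Over all 563 miRNAs it was 0.164 in LOS and 0.156 in ART. Over the 254 miRNAs with a mean of at least 100 CPM, as all 9 guides had, it was 0.123 in LOS and 0.101 in ART. Family members differ by few bases and their reads can be assigned to more than 1 of them, and the table gives the precursor of let-7a-5p, let-7f and miR-98 as mixed, so the members are not independent measurements.

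The opposite arms of let-7 precursors were rare but pointed the same way, with 5 of 5 higher in mean and a median difference of 0.49. let-7f-1-3p had 6.77, 5.22, 11.1 and 6.73 CPM in LOS 1 to 4, against 3.77, 4.07, 2.38 and 2.56 CPM in ART 1 to 4. These values rest on 20 to 48 reads in a LOS library and 10 to 18 in an ART library. It rose by 1.21 ± 0.28 (edgeR adjusted p 0.0363) with no overlap. The call was lost in 12 of 21 settings. They include the omission of LOS 1, LOS 3, LOS 4, control 2, control 3, control 4 or any ART library, where the edgeR adjusted p lay between 0.0521 and 0.128. The other 4 did not pass, namely let-7a-3p at 0.47 ± 0.16, miR-98-3p at 0.49 ± 0.15, let-7e-3p at 0.73 ± 0.36 and let-7d-3p at 0.19 ± 0.14 (edgeR adjusted p 0.118 to 0.552). miR-98-3p passed without LOS 4 (0.59, adjusted p 0.035) and let-7e-3p without LOS 2 (1.02, adjusted p 0.0238).

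Several miRNAs of the miR-99, miR-100 and miR-125 families are encoded next to let-7 copies in mammals, and as a group they were split. Of 11 listed, 5 were higher and 6 lower, and 0 were called by edgeR, DESeq2 or limma-voom. An unadjusted p under 0.05 was reached by 2 (18.2%, beside 15.5% of all), and the median was -0.04. miR-99a-3p was the highest at 0.39 ± 0.17 (edgeR adjusted p 0.296). miR-100 was the lowest at -0.56 ± 0.21 (edgeR adjusted p 0.225), with 4186, 5046, 5970.2 and 5829.97 CPM in LOS 1 to 4, against 11739, 7229, 6208 and 5779.8 CPM in ART 1 to 4. ART 1 stood apart for miR-100, while ART 4 lay inside the LOS range.

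miR-192 had the largest share of reads among the miRNAs that fell. It had 61632, 60656, 68506 and 58879.9 CPM in LOS 1 to 4, against 70069.9, 78863, 79563 and 76719.6 CPM in ART 1 to 4. LOS 3 came within a small margin of ART 1, and the groups did not overlap. It fell by 0.29 on the log2 scale (SE 0.06, edgeR adjusted p 0.0294). The call was lost without LOS 1, LOS 2, ART 2, ART 3 or ART 4 (edgeR adjusted p 0.0536 to 0.0887) and in the fit of the LOS and ART libraries alone (0.0579).

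In edgeR's test miR-192 was the 1 called of 11 miRNAs listed for hepatocytes (9.09% called lower, beside 1.6% of all). The list holds both arms of miR-101, miR-122, miR-148a and miR-192, with miR-194, miR-215 and miR-885. miR-101 was not among the cell type markers of the plan. Of the 11, 9 were lower in mean (81.8%, beside 50.1% of all) and 2 higher, with a median of -0.15 beside -0.00012 over all. Unadjusted p under 0.05 was reached by 4 of them, all lower, which is 36.4% beside 15.5% of all miRNAs. They were miR-192, miR-194 and both arms of miR-122. Arms of the same hairpin and miRNAs of shared transcripts are not independent measurements, and these percentages count each of them separately. miR-194, from the same transcripts as miR-192, had 1928, 1914, 2098 and 1786 CPM in LOS 1 to 4, against 2102, 2303, 2511 and 2359.8 CPM in ART 1 to 4. Its -0.26 ± 0.08 did not pass (edgeR adjusted p 0.102), although the groups did not quite overlap, and it passed without control 1 (0.0477) and in DESeq2 (0.041).

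miR-122 had 15959, 18430.1, 16549 and 14164 CPM in LOS 1 to 4, against 18399, 19504, 18772 and 19809 CPM in ART 1 to 4. LOS 2 was inside the ART range and the other LOS livers were below it. Its -0.23 ± 0.07 did not pass (edgeR adjusted p 0.102) and passed without LOS 2 (-0.30, adjusted p 0.0195). miR-148a, another abundant liver miRNA, differed by -0.08 ± 0.07 (edgeR adjusted p 0.642). The summed CPM of the 11 hepatocyte miRNAs lay between 161200 and 185200 in LOS, 186400 and 200700 in ART, and 175200 and 195800 in controls. In whole tissue, fewer cells of a type and less RNA per cell cannot be told apart.

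Markers of other liver cells were set beside these values, and for these lists 0 miRNAs were called by edgeR, DESeq2 or limma-voom. The 5 red cell miRNAs had a median of -0.00, 0 at an unadjusted p under 0.05 and summed CPM of 55610 to 64800 in LOS and 58000 to 64300 in ART. The 7 white blood cell miRNAs had a median of -0.00, 0 at an unadjusted p under 0.05 and sums of 4964 to 5411 in LOS and 5384 to 5702 in ART. The 11 smooth muscle, fibroblast and stellate cell miRNAs had a median of 0.10 and 1 at an unadjusted p under 0.05 (9.09%, beside 15.5% of all). Their sums were 76710 to 89910 in LOS and 69100 to 80780 in ART. The part of cell composition in the miR-192 and let-7 differences was not tested.

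Single markers of these cells gave small differences. miR-451 of red cell precursors differed by 0.03 ± 0.05, miR-142-5p of white blood cells by -0.06 ± 0.05, miR-126-5p of endothelium by 0.07 ± 0.07 and miR-143 of smooth muscle by 0.15 ± 0.08, none of which passed (edgeR adjusted p 0.394 to 0.807). The highest member of the smooth muscle and fibroblast list was miR-214 at 0.58 ± 0.25 (edgeR adjusted p 0.271). Of 9 epithelial miRNAs 0 were called, beside 2.66% of all. Of the 9, 2 had an unadjusted p under 0.05 (22.2%, beside 15.5% of all), both lower, and the median was -0.04. The lowest of the 9 was miR-31-3p at -0.52 ± 0.19 (edgeR adjusted p 0.218). The 3 listed striated muscle miRNAs had 0 calls and 0 unadjusted p under 0.05. miR-133b had 15.5, 20.9, 2.09 and 8.21 CPM in LOS 1 to 4, against 28.7, 1.67, 1.91 and 2.56 CPM in ART 1 to 4, and 1.19 to 5.15 CPM in controls. miR-133a had 106, 119, 63.4 and 72.6 CPM in LOS 1 to 4, against 169.6, 62.9, 60.3 and 53.3 CPM in ART 1 to 4. ART 1, LOS 1 and LOS 2 were the 3 highest of the 8 livers for both.

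miR-2408 had the largest difference of the 563. It had 1.2, 1.31, 2.55 and 1.05 CPM in LOS 1 to 4, against 11.5, 12.9, 10.01 and 9.48 CPM in ART 1 to 4. These are 5 to 11 reads per LOS library and 37 to 55 per ART library. The groups were far apart, with a fall of 2.84 on the log2 scale (SE 0.47, edgeR adjusted p 0.00551), and the call held in each of 21 alternative settings (adjusted p at most 0.0305). Control livers had 11.6, 12.3, 14.2, 2.08 and 12.1 CPM in control 1 to 5, so that control 4 stood at the LOS level. No role is stated here for miR-2408, a miRNA named in cattle.

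miR-2904 had 10.6, 13.3, 6.73 and 14.1 CPM in LOS 1 to 4, against 29.1, 23.7, 16.9 and 21.8 CPM in ART 1 to 4. It fell by 1.03 on the log2 scale (SE 0.21, edgeR adjusted p 0.0198) with no overlap. The 5 controls had 12.1 to 16.2 CPM, below every ART library. The call was lost without LOS 1, ART 1 or ART 2 (edgeR adjusted p 0.0536 to 0.0806) and with the LOS and ART libraries alone (0.0734). Its precursor is given as mixed.

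Entries with temporary names, whose sequences were not used here, made up 63 of the 563 and 6 of the 9 that fell. Of the 63, 49 were lower in mean (77.8%, beside 50.1% of all miRNAs) and 14 higher, with a median of -0.23. Unadjusted p under 0.05 was reached by 21 of them (33.3%, beside 15.5% of all), 18 lower and 3 higher. Their summed CPM was 33040 to 38850 in LOS, 39290 to 45640 in ART and 36640 to 39200 in controls. LOS and ART livers did not overlap, but LOS 3 (38849) and ART 4 (39294) were close. Most of each sum was the uncalled miR-temp63-3p, with 107467 to 129752 reads per LOS library and 108696 to 132779 per ART library. Near-identical entries, such as miR-temp34-3p and miR-temp82-3p among the 6, entered these counts, percentages and sums separately.

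Of the 6 that fell, miR-temp91-5p had the highest CPM, with 1313, 1838, 1385 and 2267 CPM in LOS 1 to 4, against 3492, 3369, 3113 and 2432 CPM in ART 1 to 4. It fell by 0.87 on the log2 scale (SE 0.20, edgeR adjusted p 0.0363), and LOS 4 and ART 4 were the closest pair. miR-temp32-5p had 6.57, 9.66, 7.43 and 11.8 CPM in LOS 1 to 4, against 24.7, 24.9, 32.4 and 12.3 CPM in ART 1 to 4. It fell by 1.41 (SE 0.30, edgeR adjusted p 0.0203), with LOS 4 and ART 4 again adjacent. miR-temp13-3p had 16.9, 21.2, 19.5 and 24.2 CPM in LOS 1 to 4, against 36.9, 41.6, 36.2 and 24.3 CPM in ART 1 to 4. It fell by 0.77 (SE 0.18, edgeR adjusted p 0.0363), and here LOS 4 and ART 4 were level.

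The calls of miR-temp91-5p and miR-temp13-3p were each lost in 10 of 22 settings, and that of miR-temp32-5p in 7. Among single libraries, that of miR-temp91-5p needed each of LOS 1, LOS 2, LOS 3, ART 1, ART 2, ART 3, control 2 and control 4 (edgeR adjusted p 0.0521 to 0.117 where one was left out). That of miR-temp13-3p needed LOS 1, LOS 2, LOS 3, ART 1, ART 2, ART 3, control 3 and control 4 (0.0537 to 0.125). That of miR-temp32-5p needed LOS 1, LOS 3, ART 1, ART 2 and ART 3 (0.0536 to 0.0873).

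miR-temp77-5p had 325, 362, 315 and 383 CPM in LOS 1 to 4, against 539, 609, 417 and 499.7 CPM in ART 1 to 4. It fell by 0.58 on the log2 scale (SE 0.11, edgeR adjusted p 0.0126) with no overlap. Its call was lost without LOS 1 (0.0604) or ART 2 (0.0536) and with the LOS and ART libraries alone (0.0579). miR-temp34-3p had 98, 102, 100.3 and 109 CPM in LOS 1 to 4, against 139.7, 159, 157 and 168 CPM in ART 1 to 4. It fell by 0.61 (SE 0.11, edgeR adjusted p 0.0112), with a wide gap between LOS 4 and ART 1. miR-temp82-3p, whose counts tracked those of miR-temp34-3p at a ratio of 0.968 to 1.01 in the 13 livers, fell by 0.60 (SE 0.11, edgeR adjusted p 0.0112). This pair may count the same reads, and both lost their call without LOS 1 (adjusted p 0.0524). Among the 9 that fell, LOS 4 was the highest LOS library for 7 and LOS 1 the lowest for 5.

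**Figure D3:**
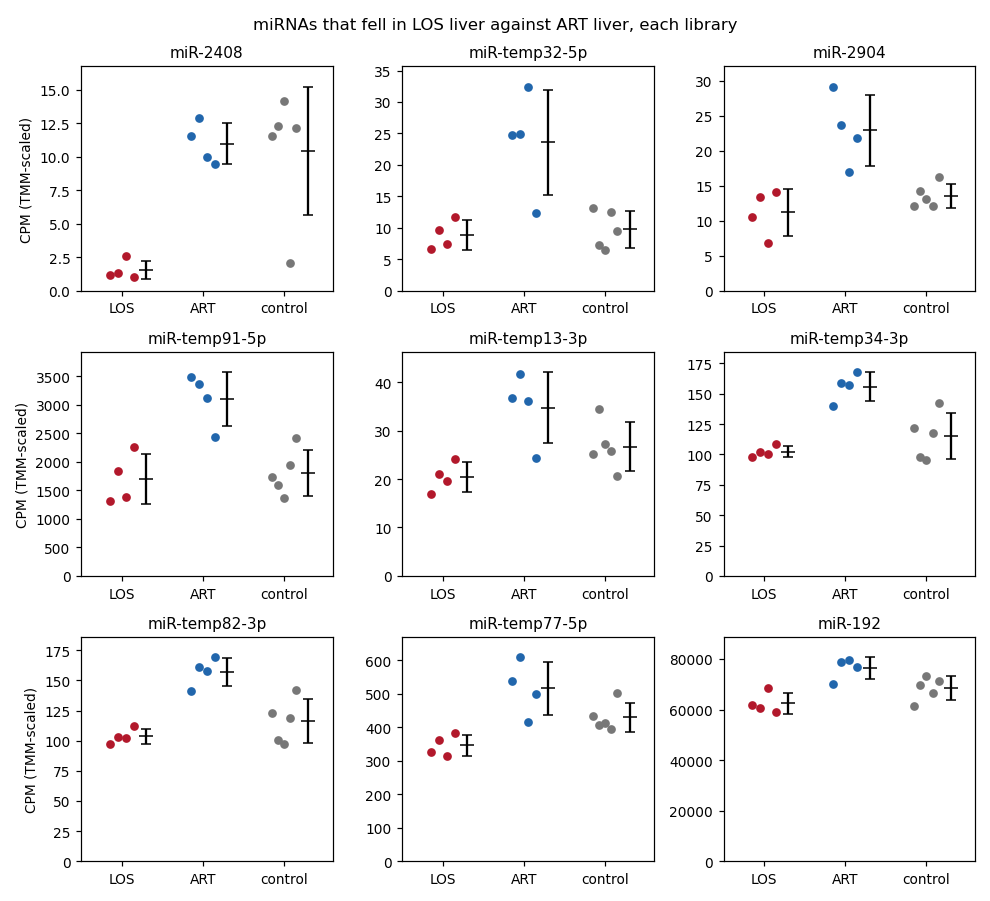
TMM-scaled CPM of the 9 miRNAs that fell, in each LOS (red), ART (blue) and control (grey) liver, with mean and SD beside the points. LOS and ART points are separate in every panel, and in the panels of miR-2904 and miR-temp91-5p all 4 ART points also lie above every control point.

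Of the temporary names that did not pass, miR-temp36-3p was the lowest at -2.35 ± 0.62 (edgeR adjusted p 0.0795), with 0.598, 6.27, 6.27 and 1.68 CPM in LOS 1 to 4, against 10.5, 30.9, 7.15 and 25.1 CPM in ART 1 to 4. Both groups spread widely without overlapping, and DESeq2 called it (adjusted p 0.0039). miR-temp1-5p was the highest at 0.65 ± 0.22 (edgeR adjusted p 0.16), with 469, 383, 682 and 902 CPM in LOS 1 to 4, against 365, 397, 409 and 386 CPM in ART 1 to 4. LOS 2 was inside the ART range, and without it miR-temp1-5p passed (0.81, edgeR adjusted p 0.033). Chosen after their values were seen, miR-temp81-5p, miR-temp94-3p and miR-temp97-5p differed by -1.26, -1.26 and -1.21 without passing (edgeR adjusted p 0.136 each). miR-temp81-5p had 134, 639.7, 453 and 593 CPM in LOS 1 to 4, against 870.3, 1464, 1319 and 713 CPM in ART 1 to 4, and LOS 1 stood far below the rest. The counts of miR-temp94-3p tracked those of miR-temp81-5p at a ratio of 0.995 to 1, so they may count the same reads. All 3 passed in DESeq2, which called 11 of the 63 temporary names where edgeR called 6.

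Control livers were set beside both groups for the called miRNAs, which had been chosen by their LOS and ART values. The comparisons share their libraries, so the values stand side by side without a test between them. let-7a-5p differed by 0.49 between LOS and control and by -0.05 between ART and control. For let-7f these values were 0.58 and 0.03, for miR-98 0.47 and -0.01, for let-7g 0.50 and 0.02, for let-7d 0.44 and 0.06 and for let-7f-1-3p 0.97 and -0.24. In all 6, 4 of 4 LOS livers lay above every control. These 6 had been chosen for being high in the same LOS livers, and the share over all listed miRNAs is not given here. Against controls LOS had 7 calls in edgeR's test (1.24%) and ART had 0 (0%), and an unadjusted p under 0.05 was reached by 77 for LOS and 47 for ART. The calls in DESeq2 numbered 20 for LOS and 6 for ART.

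miR-2408 was -2.78 in LOS against control and 0.06 in ART against control. The other 8 that fell were placed differently. miR-temp32-5p was -0.14 in LOS against control and 1.28 in ART against control. The same 2 differences were -0.09 and 0.78 for miR-temp91-5p, -0.28 and 0.75 for miR-2904, -0.17 and 0.44 for miR-temp34-3p, -0.17 and 0.43 for miR-temp82-3p, -0.38 and 0.39 for miR-temp13-3p, -0.31 and 0.26 for miR-temp77-5p and -0.13 and 0.16 for miR-192. All 4 ART livers lay above every control for miR-2904 and miR-temp91-5p, and all 4 LOS livers lay below every control for miR-temp77-5p. The shares over all listed miRNAs are not given here, and these entries had been chosen by the same LOS and ART livers. Of the 15, 6 were also called between LOS and control, 5 of those that rose and miR-2408.

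**Figure D4:**
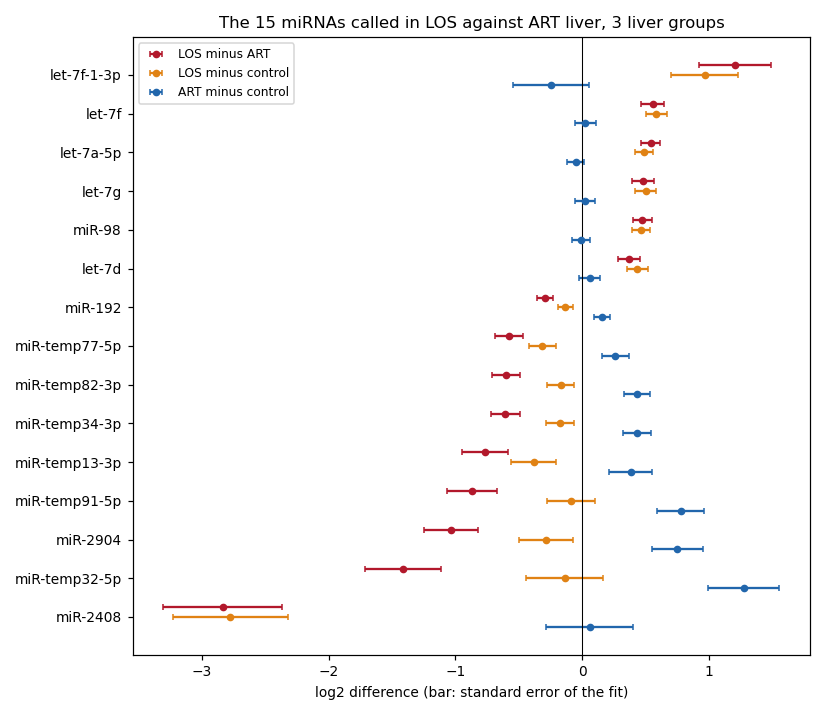
Log2 differences (points) with the standard error of the fit (bars) for the 15 miRNAs that passed between LOS and ART liver, as LOS minus ART (red), LOS minus control (orange) and ART minus control (blue). For the let-7 entries LOS minus control lies near LOS minus ART, and for miR-temp32-5p ART minus control is 1.28 while LOS minus control is -0.14.

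Imprinted miRNAs are of interest because LOS, like Beckwith-Wiedemann syndrome, is known for disturbed imprinting. Of 81 listed miRNAs of the DLK1-DIO3 domain, a maternally expressed cluster, 0 were called in edgeR's test, 35 were higher and 46 lower, with a median of -0.02. Unadjusted p under 0.05 was reached by 11 of them (13.6%, beside 15.5% of all), 3 higher and 8 lower. miR-411a of this domain, which with miR-148a had the most reads in these livers, differed by -0.07 ± 0.05 (edgeR adjusted p 0.517). All 4 LOS livers lay below all ART livers for 8 of the 81 (9.88%, beside 5.33% of all 563). One of them was miR-127, which silences the retrotransposon-like gene RTL1 and had 7873, 8627, 8099.7 and 8930.1 CPM in LOS 1 to 4, against 9637, 9658, 9350.4 and 10420 CPM in ART 1 to 4. Its -0.22 ± 0.10 did not pass (edgeR adjusted p 0.314). miR-379-3p came closest of the abundant ones, at -0.18 ± 0.05 (edgeR adjusted p 0.102), and was the 1 member that DESeq2 called.

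The 5 listed miRNAs of the IGF2, MEST and GNAS regions come from 3 hairpins, as both arms of miR-296 and miR-335 with miR-483. All were higher in mean (100%, beside 49.9% of all), with a median of 0.40, and 0 were called by edgeR, DESeq2 or limma-voom. An unadjusted p under 0.05 was reached by 2 (40%, beside 15.5% of all). miR-296-3p, from the GNAS region, had 275, 318, 453 and 294 CPM in LOS 1 to 4, against 241, 237, 267 and 274 CPM in ART 1 to 4, so LOS 1 and ART 4 were level. Its 0.40 ± 0.13 did not pass (edgeR adjusted p 0.14), and miR-296-3p was named outside the selection rule. miR-335, within MEST, had 179.7, 153, 237 and 355 CPM in LOS 1 to 4, against 187, 145, 162 and 150.2 CPM in ART 1 to 4, and its 0.52 ± 0.23 did not pass (edgeR adjusted p 0.296). LOS 4 was its highest library, and LOS 1 and LOS 2 lay inside the ART range. miR-483, from an intron of the fetal growth factor gene IGF2, had 686, 651, 710.4 and 538 CPM in LOS 1 to 4, against 635, 583, 534 and 627 CPM in ART 1 to 4. Its 0.12 ± 0.13 did not pass (edgeR adjusted p 0.702), and LOS 4 lay inside the ART range.

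**Figure D5:**
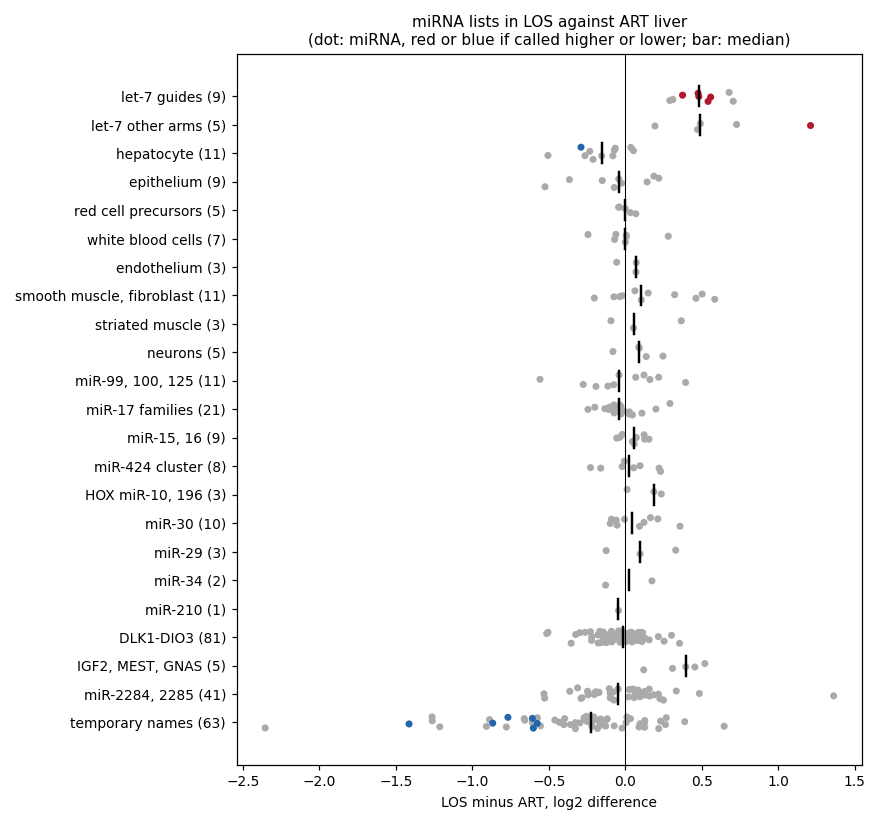
Log2 difference between LOS and ART liver of every member of 23 lists (points, red if called higher and blue if called lower), with the list's median (black bar) and the number of members in brackets. The let-7 guides and other let-7 arms lie wholly above 0, with medians of 0.48 and 0.49, and the temporary names have a median of -0.23.

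Families with known roles in proliferation had 0 calls in edgeR, DESeq2 and limma-voom. The miR-17 families, which promote cell division, numbered 21, with 6 higher and 15 lower (71.4% lower, beside 50.1% of all). Of the 21, 2 had an unadjusted p under 0.05 (9.52%, beside 15.5% of all), and the median was -0.04. Their range ran from -0.24 for miR-93-3p to 0.29 for miR-18a-3p. The miR-15 and miR-16 family, which restrains the cell cycle, had 9 listed members and a median of 0.06. The miR-424 cluster on the X chromosome had 8 and a median of 0.02, and the p53-induced miR-34 family had 2 and a median of 0.02. In these 3 lists 0 miRNAs had an unadjusted p under 0.05.

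The remaining lists had 0 calls in the same 3 tests. Medians were 0.04 over 10 miR-30 members, 0.10 over 3 miR-29 members, which target collagens, 0.19 over 3 miRNAs of the HOX clusters, 0.07 over 3 endothelial, 0.05 over 3 striated muscle and 0.09 over 5 neuronal miRNAs. In these 6 lists 2 miRNAs, 1 miR-30 and 1 miR-29 member, had an unadjusted p under 0.05. miR-210, induced by hypoxia, differed by -0.05 ± 0.08 (edgeR adjusted p 0.842). The ruminant miR-2284 and miR-2285 families had 41 listed members, with 20 higher and 21 lower and a median of -0.05. Of the 41, 2 had an unadjusted p under 0.05 (4.88%, beside 15.5% of all). Their highest member, miR-2285ca, differed by 1.36 ± 0.39 (edgeR adjusted p 0.102), with 3.19, 3.66, 6.97 and 5.68 CPM in LOS 1 to 4, against 1.88, 1.91, 1.91 and 1.79 CPM in ART 1 to 4, no overlap at a low level.

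Of the uncalled miRNAs with at least 100 CPM, those with the smallest p besides let-7 were miR-320a, miR-574 and miR-3431 on the higher side and miR-423-3p and miR-temp92-5p on the lower, along with miR-122, miR-194 and miR-379-3p. miR-320a, whose precursor is made without the enzyme Drosha in mouse, was even within groups, with 865.1, 851, 860.2 and 837 CPM in LOS 1 to 4, against 777, 694, 731 and 721 CPM in ART 1 to 4. It differed by 0.22 ± 0.06 (edgeR adjusted p 0.102). miR-574 had 164, 163, 163 and 148 CPM in LOS 1 to 4, against 115, 98.6, 129.8 and 133 CPM in ART 1 to 4, a difference of 0.42 ± 0.13 (edgeR adjusted p 0.128). For both, the groups did not overlap. miR-3431 differed by 0.54 ± 0.17, miR-423-3p by -0.20 ± 0.06 and miR-temp92-5p by -0.66 ± 0.19 (edgeR adjusted p 0.112 to 0.128). DESeq2 called miR-320a, miR-3431, miR-423-3p and miR-temp92-5p (adjusted p 0.0297 to 0.0425). In edgeR's test miR-320a, miR-574 and miR-3431 passed without control 5 (adjusted p 0.0215, 0.0457 and 0.043), miR-temp92-5p passed without LOS 2 (0.033), and miR-320a passed with library totals alone (0.0486).

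The ratio of the 2 arms of a precursor does not depend on how a library is scaled. Over 143 pairs of opposite arms, limma called 0 changed ratios between LOS and ART liver (0%) after Benjamini-Hochberg adjustment, and 15 had an unadjusted p under 0.05. miR-125b and miR-181a each entered with 2 opposite arms. Entries with a mixed precursor, such as let-7f, also entered, so their ratios can set an arm of 1 hairpin against reads of several. The smallest p-values belonged to miR-1306-3p over miR-1306, at 0.55 ± 0.15, miR-temp8-3p over miR-temp8-5p, at -0.33 ± 0.09, and miR-18a-3p over miR-18a, at 0.33 ± 0.10 (limma adjusted p 0.201, 0.201 and 0.254). For the first of these, the log2 ratio was -2.86, -3.19, -2.99 and -3.10 in LOS 1 to 4, against -3.41, -3.43, -3.87 and -3.64 in ART 1 to 4, without overlap. Without ART 4 limma called 1 ratio, that of miR-temp8, at an adjusted p of 0.0487 (-0.41). The let-7f-1-3p over let-7f ratio differed by 0.60 ± 0.24 (limma adjusted p 0.292), so its rise beyond that of let-7f did not pass.

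Precision followed abundance. Of the 89 miRNAs with a mean of at least 1000 CPM, 3 rose and 2 fell with a median SE of 0.0663 on the log2 scale. Of the 74 under 10 CPM, 1 rose and 1 fell with a median SE of 0.221. The count of calls in edgeR's test moved with single livers. It was 5 without LOS 1, 9 without ART 1, 7 without ART 2 and 9 without ART 3, beside 15 with all libraries.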

How the data were processed

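Small RNA libraries were made, per the labels' protocols, from 2 µg of TRIzol-extracted RNA with the Illumina TruSeq kit and gel selection of 140 to 160 bp. The deposited liver table holds whole-number read counts per miRNA, unnormalised, as made by the authors. Bowtie and build UMD3.1 are named in the submitters' processing notes with no role, and the sources used here name no counter or annotation. The table lists no count below 3, so totals are of listed miRNAs and not full depths. CPM, TMM factors and edgeR 4.0.16 quasi-likelihood tests (robust) were computed in R 4.3.3 in 1 fit of 13 livers. filterByExpr kept 563 of 563 miRNAs, and Benjamini-Hochberg adjustment ran over all of them, with calls at an adjusted p under 0.05. Arm ratios used limma 3.58.1 with a pseudocount of 1, and DESeq2 1.42.0, limma-voom, other scalings and filters, and leaving out each library were alternatives. Steps were tested on simulated data.

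Named miRNAs are those called, the let-7 lists, the 5 uncalled on each side with the smallest p at a mean of at least 100 CPM, the 5 of highest CPM, a fixed set of tissue and imprinted miRNAs, and each list's extremes. The members and lists were chosen with earlier results of these data known. A planned permutation test of the let-7 share was dropped because it scores list members. A planned test of seed families was not run, since no mature sequences were used here. Within-group pairs of libraries differed by a chi-square of at least 32.4 per degree of freedom, so none was counted as a duplicate. Dams and processing days are not given, so p-values measure only the spread between these livers. The table gives 62 entries a mixed precursor, and 7 pairs of entries keep a count ratio within 5%, so these are uncertain. Positions are not given, since no miRNA annotation was used here.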

Additional observations from a re-analysis of the deposited data

Results flagged for a closer look

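Among 158 groups of 4 livers examined, 5 held a library far from the other 3, where chance gives about 1 in 20. A count of 5 is no more than this rate, but the groups are not independent, so the count settles nothing about any single library. In LOS, miR-2408 stood at 2.554 CPM in LOS 3, beside 1.052 to 1.306 CPM in the others. let-7e stood at 443 CPM in LOS 2, beside 915.2 to 959.1 CPM. miR-574 stood at 148.3 CPM in LOS 4, beside 162.8 to 163.8 CPM. miR-409a of the DLK1-DIO3 domain stood at 1289 CPM in LOS 4, beside 916.9 to 979 CPM. In ART, miR-133b of striated muscle stood at 28.69 CPM in ART 1, beside 1.675 to 2.563 CPM, and without ART 1 its difference was 2.49 instead of 0.37 on the log2 scale, neither of which passed in edgeR's test.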

How the results depend on the processing

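The 15 calls became 27 in DESeq2 (10 higher, 17 lower, all 15 among them) and 6 with LOS and ART libraries alone (3 higher, 3 lower), and 5 to 19 when a library was left out, 5 without LOS 1 and 19 without LOS 2 or control 5. It was 15 with RLE scaling, no filter, limma-voom or the 3 most abundant miRNAs removed, 13 at a mean CPM of at least 10, 18 with library totals alone (9 higher, 9 lower) and 14 (chosen after seeing the data) with near-identical entries summed. A fit with a replicate block gave 10 calls (4 higher, 6 lower). Pairing by number did not show: same-number deviations correlated at 0.0652, 0.217, 0.0538 and -0.381, and 1 of 4 LOS livers correlated best with its own number. So few livers could not reveal a weak pairing. Changed arm ratios numbered 0 to 1 when a library was left out. None of the 15 reversed in a setting that gave a value. The let-7 share difference of 0.811 percentage points ran from 0.692 to 0.938 without single libraries.

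Uncalled differences that changed sign were near 0 or rested on 1 library, and the cause was not tested. miR-10a was -0.0001549 in limma-voom and -0.001448 with the replicate block. Without single libraries the log2 range was -0.108 to 0.0859 for miR-10a, -0.208 to 0.11 for miR-128-1-5p, -0.108 to 0.0077 for miR-210, -0.102 to 0.0089 for miR-126-3p, -0.0055 to 0.112 for miR-144-5p, -0.042 to 2.49 for miR-133b, -0.0057 to 0.117 for miR-139 and -0.212 to 0.131 for miR-499. The planned sum over seed families was not run. With 4 livers a group and few reads behind the rarest miRNAs, small differences there were not detectable at this depth.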
